A study of Mus musculus with 17 samples.

Results

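The genes described here are 37 cell cycle and DNA replication genes of the mouse, found by gene symbol among the 55491 gene rows of each of 2 deposited count tables. They fall into a mitotic subset of 20 genes and a replication subset of 17 genes. Each of the 37 was present in both tables and passed the filter on low counts in both, with counts between 137 (Plk1) and 34568 (Pcna) in a library. The mitotic subset holds Mki67, Top2a, Ccnb1, Ccnb2, Ccna2, Cdk1, Bub1, Bub1b, Aurka, Aurkb, Plk1, Cdc20, Cenpe, Cenpf, Kif11, Kif20a, Tpx2, Birc5, Ube2c and Nusap1. The replication subset holds Mcm2, Mcm3, Mcm4, Mcm5, Mcm6, Mcm7, Pcna, Rrm1, Rrm2, Tyms, Cdc6, Cdc45, Gins2, E2f1, Ccne1, Ccne2 and Tk1.

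A dividing cell first commits to the cycle when cyclin D and then cyclin E kinases release the E2F factors, which switch on the genes for DNA synthesis. The MCM helicase is loaded at origins with the help of CDC6, started with CDC45 and GINS, and followed by polymerases held by the PCNA clamp, while ribonucleotide reductase and thymidylate synthase supply nucleotides. Cyclin A, cyclin B and CDK1 then drive the cell into mitosis, where kinesins, kinetochore proteins and the Aurora and Polo kinases move the chromosomes, and the anaphase-promoting complex with CDC20 and UBE2C ends it. Resting splenic B cells hold most of these genes low until they are activated, whereas bone marrow cultures contain dividing precursors.

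RNA sequencing covered 17 mouse libraries in 6 groups: B cells from spleen, and dendritic cells from bone marrow (BMDC). In each cell type a group without treatment (Control) stood beside a group given MSA2, which activates the DNA-sensing pathway protein STING, and a group given MSA2 plus IPI-549, which inhibits the lipid kinase PI3Kγ. The last is called the combination. Each group had 3 libraries except the BMDC combination, which had 2, and no group was given IPI-549 without MSA2. The series text names KPC mice, which develop pancreatic tumours, as the source of all cells, while the genotype label of every library reads WT. Neither age, dose nor duration is in the labels, and the treatment field reads Control throughout, so groups follow the sample titles. Sorting of the B cells is not described.

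Totals ran from 41093440 to 51433010 counts in B cells and from 34760020 to 73166640 counts in BMDC. Whether replicates are separate mice or cultures is not stated, and the p-values may therefore reflect technical spread only. The codes of the B cell libraries of the MSA2 group end in 8, 11 and 12, behind those of Control and the combination (1 to 6). What these numbers stand for is not stated. If they follow library handling, handling and MSA2 cannot be told apart in B cells. The library codes of the 2 cell types start with different numbers (11360 for B cells and 11430 for BMDC), read here as separate projects, which the labels do not state. Level differences between cell types therefore cannot be told apart from differences between such projects. In the B cell libraries the 12 B cell markers summed to between 4769 and 9941 CPM (counts relative to the scaled library total). In BMDC Itgax, which encodes CD11c, lay between 1270.1 and 1889 CPM and the dendritic cell factor Zbtb46 between 12.3 and 22.5 CPM, while Flt3, also a dendritic cell marker, lay between 0.25 and 1.08 CPM in BMDC and between 14.2 and 24.9 CPM in B cells. The 9 dendritic cell markers summed to between 1860.5 and 2131 CPM in BMDC Control, below the 2783 to 2964 CPM of B cell Control, and 8 monocyte and macrophage markers in BMDC summed to between 12867 and 18177 CPM. Exons of Ccna2, Plk1, Cdc20, Kif20a, Ube2c, Nusap1, Mcm7, Cdc45, Gins2, Ccne2 and Tk1 overlap a gene on the other strand, Gins2 over 2758 of 4097 exon bases, and whether counting used strand is not stated, so their values may hold reads of the neighbour. In these bulk libraries a change in the share of dividing cells and a change in RNA per cell cannot be told apart.

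Summed or averaged over its genes, each subset stood higher in untreated BMDC than in untreated B cells. The 20 mitotic genes summed to 227, 240.4 and 386 CPM in the 3 B cell Control libraries and to 1367, 1341 and 1409.8 CPM in the 3 BMDC Control libraries. For the 17 replication genes the sums were 832, 895 and 1059.9 CPM in B cells and 1313, 1309.5 and 1358 CPM in BMDC. No B cell library reached a BMDC library in either sum. Mcm2 and Mcm4 went the other way, with Control means of 68.6 and 80.9 CPM in B cells and 55.8 and 67.7 CPM in BMDC. In B cell Control Pcna held 303 CPM of the mean replication sum of 929 CPM. The mean log2(CPM + 1) over the subset was 3.31, 3.42 and 4.02 for the mitotic genes and 4.72, 4.81 and 5.09 for the replication genes in B cell Control. In BMDC Control the means were 5.87, 5.83 and 5.90 for the mitotic and 5.83, 5.85 and 5.88 for the replication genes. Sums and means are not per length and are compared between libraries only, never between genes. Their scaling factors were computed within each cell type, so levels of B cells and BMDC are not on a common scale.

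**Figure D1:**
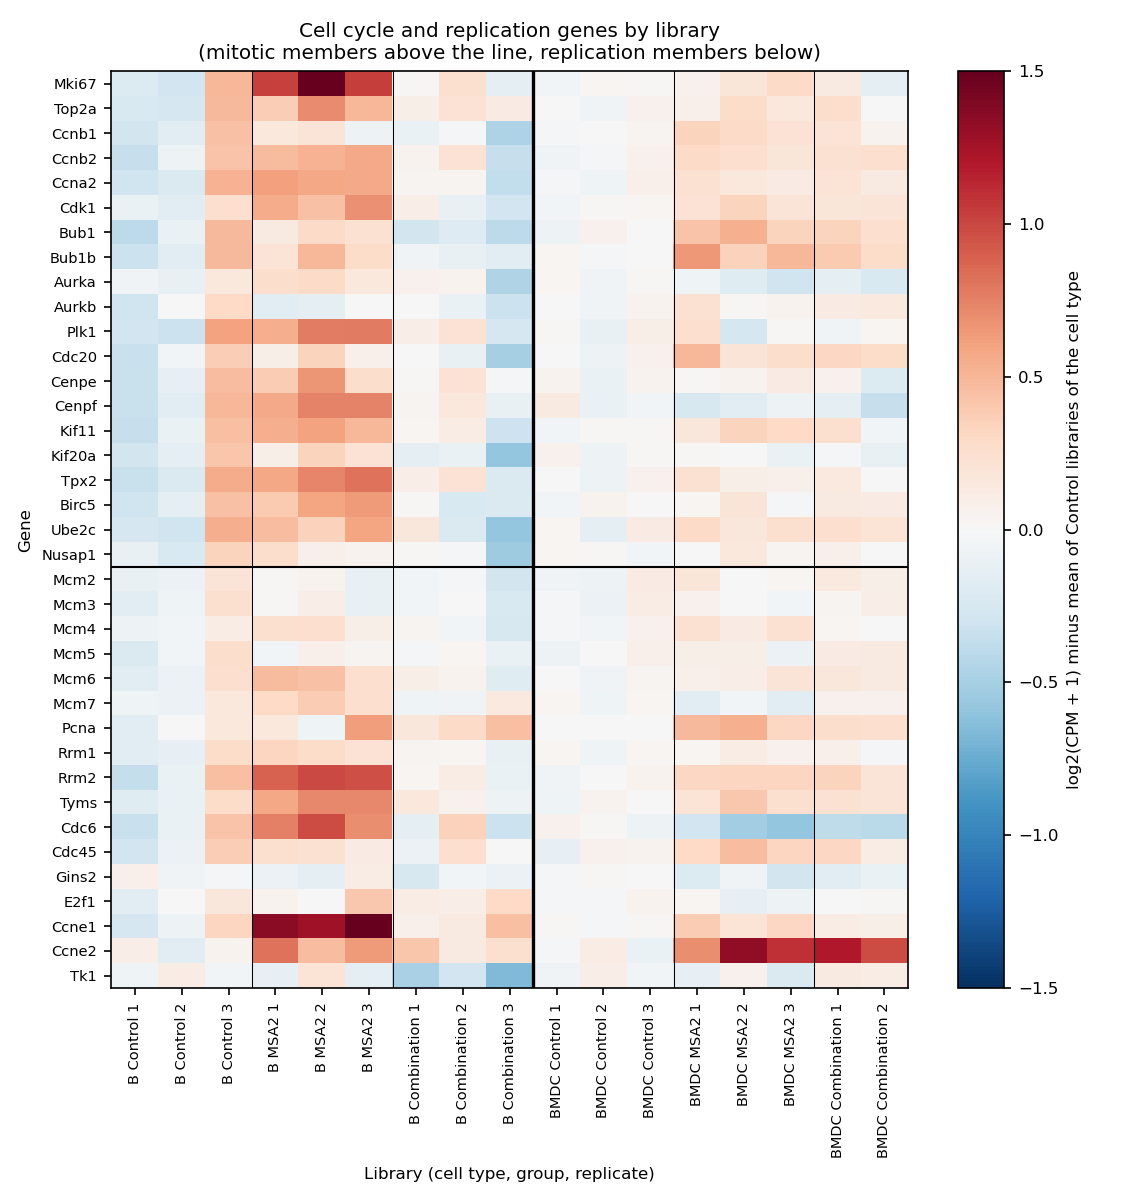
Level of the 37 genes (rows; mitotic above the black line, replication below) in each of the 17 libraries (columns), as log2(CPM + 1) minus the mean of the Control libraries of the same cell type; red is higher and blue lower than that mean. B Control 3 is red in all 20 mitotic rows, the B cell MSA2 columns are darkest for Mki67, Ccne1, Rrm2 and Cdc6, and in BMDC Ccne2 is the darkest row while Cdc6 is blue under both treatments.

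In these genes a library of the B cell Control group stood apart. Control replicate 3 was the highest of the 3 Control libraries for 20 of 20 mitotic and 14 of 17 replication genes. It reached at least the lowest MSA2 library for 13 of 20 mitotic and 11 of 17 replication genes, and exceeded every MSA2 library for 6 and 4 of them. In the combination group, replicate 3 was the lowest library for 18 of 20 mitotic genes. Counts of called genes in B cells are therefore given below with and without Control replicate 3. For MSA2 against Control, values without it are also given for Mki67, Plk1, Top2a and Rrm2. Other called genes moved as well, among them Cenpf (to 1.06 on the log2 scale), Tpx2 (1.08), Ccna2 (0.88), Birc5 (0.85), Kif11 (0.80), Cdc6 (1.15) and Ccne1 (1.82). Control replicate 3 was picked out by these same genes. Over all genes of sufficient count, replicates 2 and 3 were the closest pair of Control libraries. Their squared differences relative to sampling noise averaged 13.7 per gene, against 23.3 for replicates 1 and 2 and 43.2 for replicates 1 and 3. Leaving it out raises the log2 fold change against Control of the genes where it was highest, and the larger values are no support. For how many of all genes it was highest, or reached the MSA2 libraries, was not counted. The same holds for combination replicate 3, so these counts say nothing particular to the members.

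**Figure D2:**
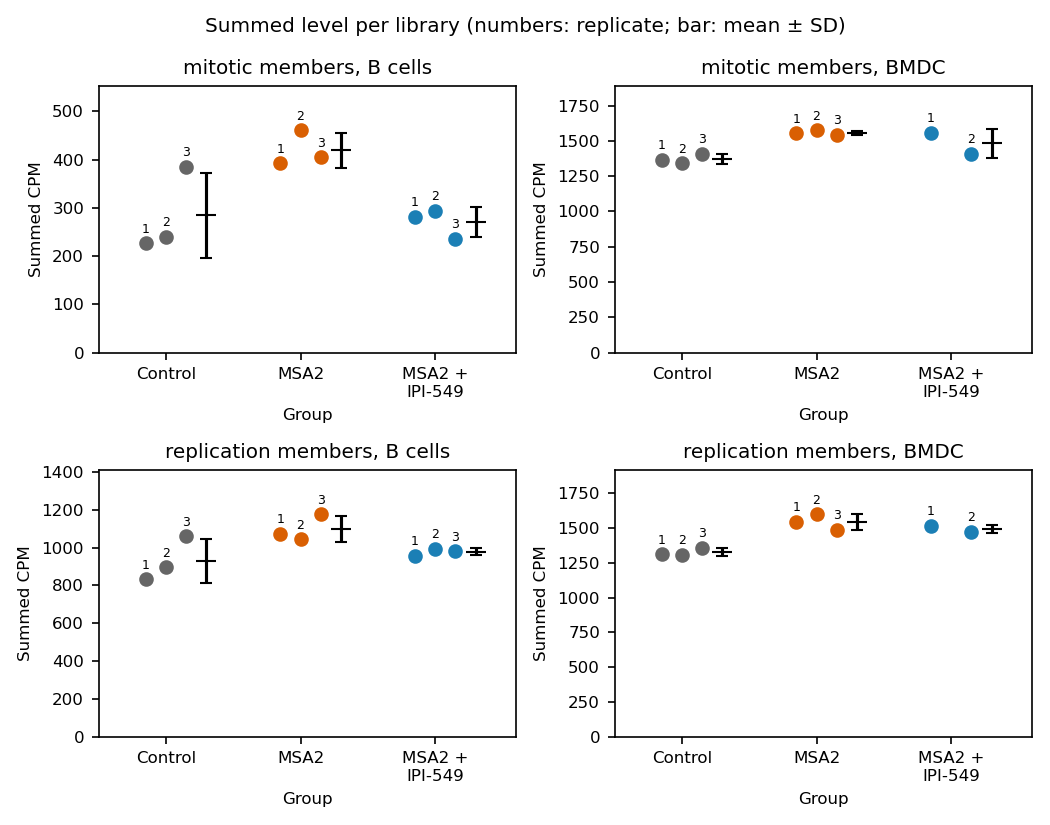
Summed CPM of the mitotic genes (top) and the replication genes (bottom) per library, in B cells (left) and BMDC (right), by group; points are libraries with their replicate number and bars are the group mean ± SD, with axes starting at 0. In B cells the 3 MSA2 libraries lie at 393 to 461 CPM for the mitotic genes and Control replicate 3, at 386 CPM, lies just under them.

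Short sequence motifs in the promoters are a property that the choice of genes did not use, and they were counted without a test. Windows from 250 bases before to 50 bases after the RefSeq start were matched for 30 of the 37 genes, 16 mitotic and 14 replication, and searched on both strands. A gene was counted where any of its windows held the motif, whereas the shares over all windows are per single window. Ccna2, Aurkb, Kif20a, Tpx2, Mcm4, Gins2 and Ccne2 had no window in the table. The cell cycle homology region (CHR, here TTTGAA or TTCGAA) is bound by the MuvB complex in late cell cycle genes. It was in 12 of 16 mitotic genes (75.0%) and in 3 of 14 replication genes (21.4%). It was in 19.2% of all 32851 mouse windows of that length. CCAAT, the NF-Y box, was in 14 of 16 mitotic genes (87.5%), 9 of 14 replication genes (64.3%) and 37.4% of all windows. An E2F site (TTTCCCGC, TTTGGCGC, TTTCGCGC or TTTGCCGC) was in 1 of 16 mitotic genes (6.25%, Cdk1), against 2.26% of all windows. It was in 5 of 14 replication genes (35.7%, namely Mcm3, Mcm5, Mcm6, Mcm7 and Cdc6). In Mcm6 an E2F match on each strand shares bases with the other. A match is a description of the letters and was not set against binding data.

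Promoters of 4 genes that rose in MSA2-treated B cells show these arrangements. Each is printed 5′ to 3′ on the gene's strand up to the RefSeq start or, where it comes first, the annotated transcript start, from GRCm38.p6, with motif matches in capitals. The Mki67 stretch is chr7:135716380-135716629 and the Cdk1 stretch chr10:69352939-69353162, both on the minus strand. The Mcm6 stretch is chr1:128359706-128359955 on the minus strand and the Rrm2 stretch chr12:24708004-24708240 on the plus strand.
Mki67: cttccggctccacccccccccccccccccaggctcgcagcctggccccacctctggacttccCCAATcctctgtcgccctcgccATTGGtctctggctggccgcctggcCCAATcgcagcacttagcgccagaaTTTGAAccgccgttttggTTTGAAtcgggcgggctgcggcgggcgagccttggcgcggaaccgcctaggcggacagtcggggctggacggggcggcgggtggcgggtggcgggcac
Cdk1: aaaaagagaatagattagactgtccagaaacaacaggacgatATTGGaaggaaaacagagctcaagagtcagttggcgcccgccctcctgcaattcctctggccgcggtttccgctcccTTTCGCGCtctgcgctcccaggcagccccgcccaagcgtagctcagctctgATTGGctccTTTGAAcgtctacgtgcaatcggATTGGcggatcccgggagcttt
Mcm6: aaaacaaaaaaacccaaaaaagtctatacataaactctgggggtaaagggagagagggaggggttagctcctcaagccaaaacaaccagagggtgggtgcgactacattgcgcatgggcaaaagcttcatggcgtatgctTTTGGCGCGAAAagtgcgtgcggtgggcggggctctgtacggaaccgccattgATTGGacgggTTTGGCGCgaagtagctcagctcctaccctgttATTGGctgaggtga
Rrm2: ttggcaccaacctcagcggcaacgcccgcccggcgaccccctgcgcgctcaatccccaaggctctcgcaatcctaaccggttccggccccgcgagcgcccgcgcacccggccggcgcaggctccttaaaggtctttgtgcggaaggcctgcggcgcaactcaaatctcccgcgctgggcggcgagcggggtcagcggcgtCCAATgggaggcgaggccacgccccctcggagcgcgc
Mki67 holds CHR letters (TTTGAA) 116 and 98 bases before the start and 3 NF-Y boxes, read as CCAAT or, on the other strand, ATTGG. Cdk1 holds 1 CHR in the printed stretch, 71 bases before the start, with 3 NF-Y boxes and 1 E2F string (TTTCGCGC). Mcm6 holds no CHR and 3 E2F matches, of which the first TTTGGCGC shares bases with GCGCGAAA, the reverse of TTTCGCGC. Rrm2 holds a CCAAT 50 bases before the start and neither of the other motifs.

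In B cells given MSA2 and no inhibitor, 16 of the 37 genes rose against Control and none fell. By role these were the proliferation marker Mki67, the mitotic drivers Ccna2, Cdk1 and Plk1, the chromosome and spindle genes Top2a, Cenpf, Kif11, Tpx2 and Birc5, the licensing genes Cdc6, Mcm6 and Mcm7, the nucleotide genes Rrm2 and Tyms, and both E cyclins, Ccne1 and Ccne2. That is 9 of 20 mitotic and 7 of 17 replication genes, beside 24.9% of all 16180 genes tested that were called higher and 18.5% that were called lower in this comparison. The median log2 fold change was 0.48 for the mitotic and 0.26 for the replication genes, and -0.01 over all genes. A call here is an adjusted p under 0.05 in edgeR's quasi-likelihood test, adjusted over all genes tested. Beside this, libraries of the MSA2 group differed in cell type markers, as given further on.

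Among the mitotic genes Mki67, which encodes the Ki-67 antigen of cycling cells and lies at chr7:135689784-135716361 (GRCm38, minus strand), changed most. It stood at 36.3, 34.2 and 59.8 CPM in Control, 86.9, 120.1 and 87.2 CPM under MSA2 and 42.7, 49.9 and 37.8 CPM under the combination. All 3 MSA2 libraries lay above every other B cell library. The log2 fold change of MSA2 against Control was 1.18 ± 0.21 (SE; adjusted p = 0.000818), or 1.47 without Control replicate 3. Cdk1, the kinase of mitotic entry, stood at 6.47, 6.14 and 8.54 CPM in Control, 10.8, 9.87 and 11.8 CPM under MSA2 and 7.58, 6.37 and 5.57 CPM under the combination. Its MSA2 libraries did not overlap the others, and the log2 fold change was 0.62 ± 0.15 (adjusted p = 0.00744).

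For other mitotic genes the groups touched. Plk1, the Polo kinase of spindle assembly, stood at 3.08, 2.996 and 6.56 CPM in Control, 6.26, 7.48 and 7.54 CPM under MSA2 and 4.33, 4.79 and 3.19 CPM under the combination. Control replicate 3 lay above the lowest MSA2 library. The log2 fold change was 0.75 ± 0.28 (adjusted p = 0.0465) and 1.22 without that library. Top2a, the topoisomerase that untangles sister chromatids, stood at 46.9, 46.3 and 77.6 CPM in Control, 71.8, 91.3 and 78.3 CPM under MSA2 and 59.002, 64.2 and 60.3 CPM under the combination. Here too Control replicate 3 overlapped the MSA2 libraries, and the log2 fold change was 0.50 ± 0.18 (adjusted p = 0.0389), or 0.78 without it. Cenpf, a kinetochore protein, stood at 4.64, 5.34 and 9.04 CPM in Control, 9.56, 10.9 and 10.9 CPM under MSA2 and 6.298, 6.94 and 5.57 CPM under the combination. Cenpf (0.72 ± 0.21; adjusted p = 0.017) and Tpx2, the activator of Aurora A on the spindle (0.71 ± 0.23; adjusted p = 0.0258), rose with no overlap between MSA2 and Control.

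The remaining called mitotic genes rose by less than 0.6 on the log2 scale: Birc5, which encodes survivin (0.57, overlapping), the cyclin Ccna2 (0.56) and the spindle kinesin Kif11 (0.53). The 11 mitotic genes without a call had log2 fold changes from -0.13 (Aurkb) to 0.53 (Ccnb2). Among them the cyclin Ccnb1 stood at 9.47, 10.3 and 16.3 CPM in Control, 13.2, 13.5 and 11.1 CPM under MSA2 and 10.9, 11.5 and 8.23 CPM under the combination, with its highest value in Control replicate 3. Its log2 fold change was 0.07 ± 0.20, with a 95% interval of -0.37 to 0.50. Bub1 and Bub1b, kinases of the spindle checkpoint, also had Control replicate 3 within or above the MSA2 range. Bub1 stood at 4.696, 5.95 and 9.49 CPM in Control, 7.17, 8.07 and 7.77 CPM under MSA2 and 5.15, 5.499 and 4.67 CPM under the combination (0.20 ± 0.21 for MSA2 against Control). Bub1b stood at 10.7, 12.1 and 19.6 CPM, 15.9, 19.7 and 16.7 CPM and 13.1, 12.5 and 12.1 CPM in the same order (0.31 ± 0.19). Aurkb, the kinase of the chromosomal passenger complex, was the single mitotic gene with a negative value (-0.13 ± 0.16; adjusted p = 0.537).

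In the replication subset Ccne1, Rrm2 and Cdc6 led. Ccne1 (chr7:38097984-38107534), which encodes cyclin E1 of the G1 to S step, stood at 3.24, 3.78 and 5.28 CPM in Control, 11.9, 11.1 and 14.4 CPM under MSA2 and 4.31, 4.51 and 5.899 CPM under the combination. The lowest MSA2 library lay far above the highest of the other 6. The log2 fold change was 1.61 ± 0.19 (adjusted p = 4.62e-05), a 3.04-fold level. Ccne2 (chr4:11191351-11204779), which encodes cyclin E2, stood at 9.21, 7.52 and 8.86 CPM, 15.7, 12.1 and 13.9 CPM and 11.7, 9.46 and 10.3 CPM in the same order of groups. Its MSA2 libraries were also the 3 highest, with a log2 fold change of 0.70 ± 0.13 (adjusted p = 0.00111). The overlap of Ccne2 is with Ints8, over 609 of its 3495 exon bases.

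Rrm2, the small subunit of ribonucleotide reductase, stood at 17.1, 20.7 and 30.9 CPM in Control, 42.03, 45.1 and 44.5 CPM under MSA2 and 22.8, 24.01 and 20.6 CPM under the combination. Again no other library reached the MSA2 range, and the log2 fold change was 0.94 ± 0.17 (adjusted p = 0.00102; 1.21 without Control replicate 3). Its partner Rrm1, the large subunit, had a log2 fold change of 0.26 ± 0.11 and was not called (adjusted p = 0.0733). Tyms, which makes thymidylate, rose by 0.74 ± 0.15 on the log2 scale (adjusted p = 0.00168). Cdc6 (chr11:98907801-98923940), the loader of the MCM helicase, stood at 4.795, 5.79 and 8.81 CPM in Control, 11.3, 13.3 and 10.9 CPM under MSA2 and 5.61, 8.23 and 4.82 CPM under the combination. Its 3 MSA2 libraries were the highest, with a log2 fold change of 0.87 ± 0.23 (adjusted p = 0.011).

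Of the MCM helicase subunits, Mcm6 and Mcm7 were called. Mcm6 (0.38 ± 0.12; adjusted p = 0.023) and Mcm7 (0.31 ± 0.09; adjusted p = 0.0161) rose. The values of the other subunits were -0.02 ± 0.10 for Mcm2, -0.01 ± 0.11 for Mcm3, 0.19 ± 0.09 for Mcm4 and 0.01 ± 0.11 for Mcm5, none of them called. Pcna, the sliding clamp, stood at 269, 303 and 338 CPM in Control, 337, 289 and 469 CPM under MSA2 and 341, 370.3 and 414 CPM under the combination. The MSA2 libraries of Pcna overlapped both other groups (0.27 ± 0.16; adjusted p = 0.207). Cdc45, the helicase cofactor, stood at 5.57, 6.58 and 9.38 CPM, 8.48, 8.38 and 7.74 CPM and 6.54, 8.57 and 6.98 CPM in the same order (0.19 ± 0.18, not called). Gins2 (-0.04), E2f1 (0.17) and Tk1 (-0.02) were not called either.

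**Figure D3:**
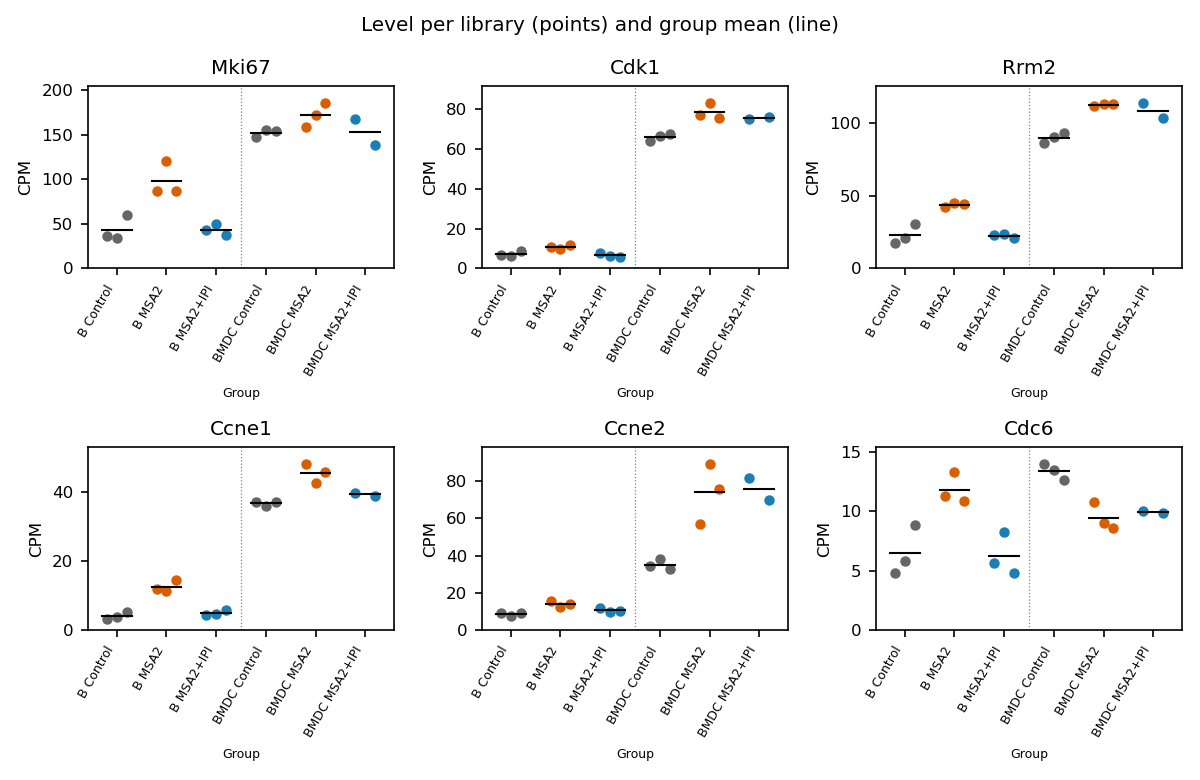
CPM per library (points) and group mean (line) for Mki67, Cdk1, Rrm2, Ccne1, Ccne2 and Cdc6, with B cells left and BMDC right of the dotted line; axes are linear and start at 0. In B cells all 6 genes are highest in the 3 MSA2 libraries; in BMDC Ccne2 is above Control under both treatments and Cdc6 below it.

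Leaving out Control replicate 3 raised the count from 16 to 23 called genes, 14 of them mitotic, with medians of 0.78 for the mitotic and 0.39 for the replication genes. Over all genes the calls went from 7016 to 6395 in the same fit. The added genes were Ccnb2, Bub1, Bub1b, Cenpe, Ube2c, Rrm1 and Cdc45. Leaving out Control replicate 1 or Control replicate 2 lowered it to 7 called genes in each case, 2 of them mitotic, and leaving out MSA2 replicate 2 gave 10, with 6268, 5877 and 6734 calls over all genes. Ccne1, Ccne2, Cdc6, Cdk1, Mki67, Rrm2 and Tyms were called under every alternative tried. Over the alternatives the log2 fold change ran from 1.01 to 1.47 for Mki67 and from 0.76 to 1.21 for Rrm2. It ran from 0.55 to 1.22 for Plk1 and from 0.37 to 0.78 for Top2a. The upper value of each came without Control replicate 3.

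Markers of other blood cells moved with the same group. All 12 T cell markers, all 8 NK cell, 9 erythroid, 10 neutrophil, 8 monocyte and macrophage, 6 mast cell and basophil and 5 blood progenitor markers rose in the MSA2 libraries of B cells, and all 12 B cell markers fell (median -0.87 on the log2 scale). The erythroid markers summed to between 1059 and 1232 CPM under MSA2, between 21.9 and 45.1 CPM in Control and between 18.3 and 22.6 CPM under the combination. For neutrophils and their precursors the ranges were 1498 to 1589 CPM, 2.18 to 32.9 CPM and 0.308 to 0.887 CPM in the same order. Blood progenitor markers summed to between 62.2 and 96.4 CPM, 23.4 and 30.8 CPM, and 18.6 and 23.2 CPM. T cell markers summed to between 1166 and 1503 CPM under MSA2, 64.8 and 85.8 CPM in Control and 51.7 and 60.6 CPM under the combination, where Cd3e was at 0 in all 3 libraries. Elane, which marks neutrophil precursors, was at 0 in all Control and combination libraries and between 2.95 and 3.30 CPM under MSA2. B cell markers summed to between 4769 and 5275 CPM under MSA2 and between 9101 and 9716 CPM in Control. NK cell markers summed to between 342 and 417 CPM under MSA2 and 14.2 and 19.6 CPM in Control, monocyte and macrophage markers to between 1196 and 1329 CPM and 36.6 and 54.3 CPM, and mast cell and basophil markers to between 94.7 and 163 CPM and 7.02 and 9.73 CPM. Plasmablast markers gave 3 higher and 2 lower of 6, and dendritic cell markers 5 higher and 1 lower of 9. Germinal centre B cell markers, 1 of 6 higher and 4 of 6 lower under MSA2, summed to between 144 and 158 CPM against 171 to 199 CPM in Control. The part of these cells in the rise of the cell cycle genes was not tested.

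When MSA2 was given with IPI-549, none of the 37 genes was called against Control in B cells. In all, 1.06% of all genes, 171 of 16180, were called in either direction in this comparison, and the median log2 fold change was -0.13 for the mitotic and -0.02 for the replication genes, against -0.02 over all genes. At an unadjusted p under 0.05 the count was 2 of 37, Ccne2 (0.29 ± 0.13; adjusted p = 0.503) and Tk1 (-0.50 ± 0.13; adjusted p = 0.134). Over all genes 1563 of 16180 (9.66%) were under that threshold. Tk1, the salvage kinase for thymidine, stood at 17.7, 20.2 and 18.1 CPM in Control and 13.1, 15.1 and 11.4 CPM under the combination, without overlap. Tk1 was called by DESeq2 and without the filter on low counts (1 member in each), and not by limma-voom. With the suffix of the sample titles as a replicate block in edgeR it was also called (-0.51, adjusted p = 0.0198). The 95% interval for Mki67 ran from -0.45 to 0.46, and that for Ccne1 from -0.17 to 0.69. Without Control replicate 3 no member was called and both medians turned to 0.13.

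The combination against MSA2 in B cells gave the opposite picture to MSA2 against Control; both comparisons share the MSA2 libraries and are not independent. Here 18 genes fell and none rose, 9 of 20 mitotic and 9 of 17 replication, beside 22.9% of all genes called lower and 14.1% called higher. The medians were -0.58 for the mitotic and -0.29 for the replication genes, against 0.01 over all genes. In all 18 the 3 combination libraries lay below the 3 MSA2 libraries. As these genes were selected by being called lower, the separation is no further support. Its share over all genes was not counted. The falls were led by Ccne1 (-1.34 ± 0.19; adjusted p = 0.000178), Mki67 (-1.17 ± 0.21; adjusted p = 0.000891), Rrm2 (-0.97 ± 0.17; adjusted p = 0.000913) and Cdc6 (-0.93 ± 0.24; adjusted p = 0.00901). Plk1 (-0.79 ± 0.28; adjusted p = 0.0446), Birc5 (-0.77 ± 0.20; adjusted p = 0.00921), Cenpf (-0.74 ± 0.21; adjusted p = 0.018) and Cdk1 (-0.73 ± 0.16; adjusted p = 0.00304) followed. Birc5 stood at 9.15, 10.6 and 10.99 CPM under MSA2 and 6.796, 5.57 and 5.64 CPM under the combination, with 5.26, 6.06 and 9.44 CPM in Control. The others were Tpx2 (-0.72), Ccna2 (-0.70), Tyms (-0.70), Kif11 (-0.62), Ccnb2 (-0.58), Tk1 (-0.48), Ccne2 (-0.41), Mcm6 (-0.40), Mcm7 (-0.30) and Mcm4 (-0.27).

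Ccnb2, Tk1 and Mcm4 were called in this comparison and not in MSA2 against Control, and Top2a was called there and not here; the differences between the comparisons were not tested. The 19 genes without a call ranged from -0.73 (Ube2c, the ubiquitin-conjugating enzyme of mitotic exit) to 0.04 (Pcna). Among them were Mcm2 (-0.09), Mcm3 (-0.09), Mcm5 (-0.05), Aurkb (-0.04) and E2f1 (0.01). The count was 25, 15 of them mitotic, without Control replicate 3. It was 9 without combination replicate 3, 11 without MSA2 replicate 1 and 9 without MSA2 replicate 2. Over all genes the calls in these 4 fits were 6050, 6021, 5590 and 5781, against 5985. In these 2 groups libraries with the same title suffix deviated together, and with the suffix as a replicate block 17 members were called: Plk1 (adjusted p = 0.0526) and Ccnb2 (adjusted p = 0.0555) were no longer called, and Bub1 (-0.58; adjusted p = 0.0464) was. Calls over all genes with the block are not given here, so its count of members is not read against a background. Birc5, Ccne1, Cdc6, Cdk1, Mki67, Rrm2 and Tyms were called under every alternative. The marker differences of the MSA2 libraries apply here as well: all 12 T cell, 9 erythroid, 10 neutrophil and 5 progenitor markers were lower under the combination, and their part was not tested.

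In BMDC given MSA2, 15 of the 37 genes rose against Control and 1, Cdc6, fell. Mitotic calls were 8 higher, among them the B cyclins Ccnb1 and Ccnb2, the checkpoint kinases Bub1 and Bub1b and the anaphase-promoting complex genes Cdc20 and Ube2c, with Cdk1 and Kif11. Replication calls were 7 higher, namely Ccne1, Ccne2, Pcna, Cdc45, Mcm4, Rrm2 and Tyms, and 1 lower. Over all 14614 genes tested, 14.6% were called higher and 13.5% lower. The median log2 fold change was 0.17 for the mitotic and 0.07 for the replication genes, against -0.01 over all genes.

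Ccne2 changed most in BMDC. It stood at 34.5, 37.9 and 32.7 CPM in Control, 57.3, 89.2 and 76.1 CPM under MSA2 and 81.8 and 69.7 CPM under the combination. Every treated library lay above every Control library. The log2 fold change was 1.08 ± 0.14 for MSA2 (adjusted p = 0.000152) and 1.11 ± 0.15 for the combination (adjusted p = 0.000507), subject to the Ints8 overlap given above. Ccne1 stood at 37.2, 35.9 and 37.02 CPM in Control, 48.1, 42.5 and 45.8 CPM under MSA2 and 39.7 and 38.96 CPM under the combination. It rose under MSA2 (0.31 ± 0.06; adjusted p = 0.00444), while the combination gave 0.10 ± 0.07 (adjusted p = 0.433).

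Cdc6 was the called replication gene that fell. It stood at 13.99, 13.5 and 12.7 CPM in Control, 10.8, 9.004 and 8.62 CPM under MSA2 and 10.04 and 9.83 CPM under the combination, and no treated library reached the Control range. The log2 fold change was -0.50 ± 0.10 for MSA2 (adjusted p = 0.00278) and -0.43 ± 0.11 for the combination (adjusted p = 0.0268). Gins2 (-0.18 ± 0.07; adjusted p = 0.0854) and Mcm7 (-0.12 ± 0.06; adjusted p = 0.151) also had negative values under MSA2 and were not called, as had Tk1 (-0.09) and E2f1 (-0.06).

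The replication fork and nucleotide genes that rose did so by modest amounts. Pcna stood at 332, 334 and 333 CPM in Control, 469, 483 and 415 CPM under MSA2 and 399.9 and 396 CPM under the combination. The 3 groups did not overlap, with Control lowest and MSA2 highest, and the log2 fold change for MSA2 was 0.45 ± 0.07 (adjusted p = 0.000439). Cdc45 stood at 15.8, 18.2 and 18.05 CPM, 21.6, 24.2 and 21.8 CPM and 21.7 and 18.7 CPM in the same order (0.38 ± 0.09; adjusted p = 0.00793). Rrm2 stood at 86.7, 90.6 and 93.2 CPM, 112, 113 and 113 CPM and 114 and 103 CPM (0.32 ± 0.06; adjusted p = 0.00177). All treated libraries of both genes lay above Control. Tyms (0.29) and Mcm4 (0.20) completed the called replication genes.

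Of the mitotic genes in BMDC, the checkpoint kinases led. Bub1b stood at 67.3, 64.8 and 65.2 CPM in Control, 103, 83.5 and 93.5 CPM under MSA2 and 86.4 and 79.7 CPM under the combination. Bub1 stood at 33.3, 36.8 and 35.1 CPM, 47.6, 51.01 and 44.5 CPM and 44.6 and 42.1 CPM. In both genes every treated library exceeded every Control library. The log2 fold changes under MSA2 were 0.51 ± 0.08 for Bub1b (adjusted p = 0.000569) and 0.44 ± 0.07 for Bub1 (adjusted p = 0.000822). Cdc20, the activator of the anaphase-promoting complex, rose by 0.33 ± 0.09 (adjusted p = 0.0132).

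Cyclin B1 and CDK1, which form the kinase of mitotic entry, both rose in BMDC. Ccnb1 stood at 72.5, 73.6 and 76.3 CPM in Control, 93.3, 90.8 and 86.4 CPM under MSA2 and 85.4 and 77.1 CPM under the combination (0.28 ± 0.06 for MSA2; adjusted p = 0.00527). Cdk1 stood at 64.2, 66.7 and 67.6 CPM, 77.3, 83.4 and 75.8 CPM and 75.1 and 75.9 CPM (0.25 ± 0.06; adjusted p = 0.00759). Treated and Control libraries did not overlap in either gene. Kif11 (0.27), Ccnb2 (0.24) and Ube2c (0.23) were the other calls.

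Mki67, Top2a and Plk1, called higher under MSA2 in B cells, were among the genes without a call in BMDC. In the joint fit given below, the difference between cell types was called for Mki67 and not for Top2a or Plk1. Mki67 stood at 148, 155 and 153 CPM in Control, 159, 172 and 186 CPM under MSA2 and 167 and 138 CPM under the combination (0.18 ± 0.08 for MSA2; adjusted p = 0.123). Top2a stood at 268, 260.0 and 283 CPM, 285, 328 and 301 CPM and 323 and 271 CPM (0.17 ± 0.08; adjusted p = 0.132). Plk1 stood at 29.8, 27.1 and 31.3 CPM, 35.1, 24.2 and 29.8 CPM and 28.3 and 29.9 CPM (0.01 ± 0.12; adjusted p = 0.966). For Plk1 the MSA2 libraries lay on both sides of Control. Aurka (-0.18 ± 0.07; adjusted p = 0.0912), Cenpf (-0.16) and Kif20a (-0.03) had negative values. In BMDC erythroid markers summed to between 1.21 and 2.02 CPM in Control, 2.32 and 3.26 CPM under MSA2 and 1.99 and 2.45 CPM under the combination. The 1 erythroid marker tested was called higher under MSA2 (0.86). Mast cell and basophil markers summed to between 24.8 and 29.3 CPM in Control and 33.6 and 36.7 CPM under MSA2 (1 higher and 0 lower of 5 tested). T cell markers gave 2 higher and 2 lower of 7 tested under MSA2. Over all 8 BMDC libraries blood progenitor markers summed to between 66.7 and 81.0 CPM (0 higher and 1 lower of 4 tested under MSA2). Neutrophil markers summed to between 695 and 960.0 CPM (0 higher and 1 lower of 9). Other lists moved in BMDC under MSA2: dendritic cell markers gave 5 higher and 1 lower of 8 tested (median log2 fold change 1.25), monocyte and macrophage markers 1 higher and 3 lower of 8 (median -0.24) and plasmablast markers 1 higher and 3 lower of 6 (median -0.55). Under the combination these 3 lists gave the same counts against Control, with medians of 1.43, -0.21 and -0.33. The part of any of these marker lists in the changes of the cell cycle genes was not tested.

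Under the combination 7 of the 37 genes were called against Control in BMDC. Those that rose were Ccne2, Bub1b (0.34 ± 0.09; adjusted p = 0.025), Bub1 (0.30 ± 0.08; adjusted p = 0.0282), Rrm2 (0.27 ± 0.07; adjusted p = 0.0184), Pcna (0.26 ± 0.07; adjusted p = 0.0425) and Ccnb2 (0.25 ± 0.07; adjusted p = 0.0353), and Cdc6 fell. The background was 7.51% of all genes called higher and 5.38% called lower. Medians were 0.13 for the mitotic, 0.12 for the replication and 0.01 for all genes. The 7 genes are also among the 16 called under MSA2, but both comparisons share the Control libraries. The other 30 genes ranged from -0.25 (Cenpf) to 0.29 (Cdc20). This count rests on single libraries: it was 1 without Control replicate 1 or combination replicate 1, and 2 without Control replicate 2 or combination replicate 2, while calls over all genes went from 1883 to 1306, 843, 1462 and 1036 in that order. Ccne2 was called under every alternative.

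Directly compared, the combination and MSA2 in BMDC gave no call among the 37 genes, nor among all 14614 genes (0% called). At an unadjusted p under 0.05 the counts were 6 of 37 and 1594 of all genes. DESeq2 called 162 genes and limma-voom 3, and neither called a member. The 6 were Ccne1 (-0.21 ± 0.07), Pcna (-0.19 ± 0.07), Mcm4 (-0.18 ± 0.07) and Ccnb1 (-0.15 ± 0.07) with lower, and Mcm7 (0.18 ± 0.07) and Tk1 (0.21 ± 0.09) with higher values under the combination. The widest 95% bounds over the 37 genes were -0.37 for Mki67 and 0.41 for Tk1, so that larger log2 differences lie outside the interval of each gene.

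**Figure D4:**
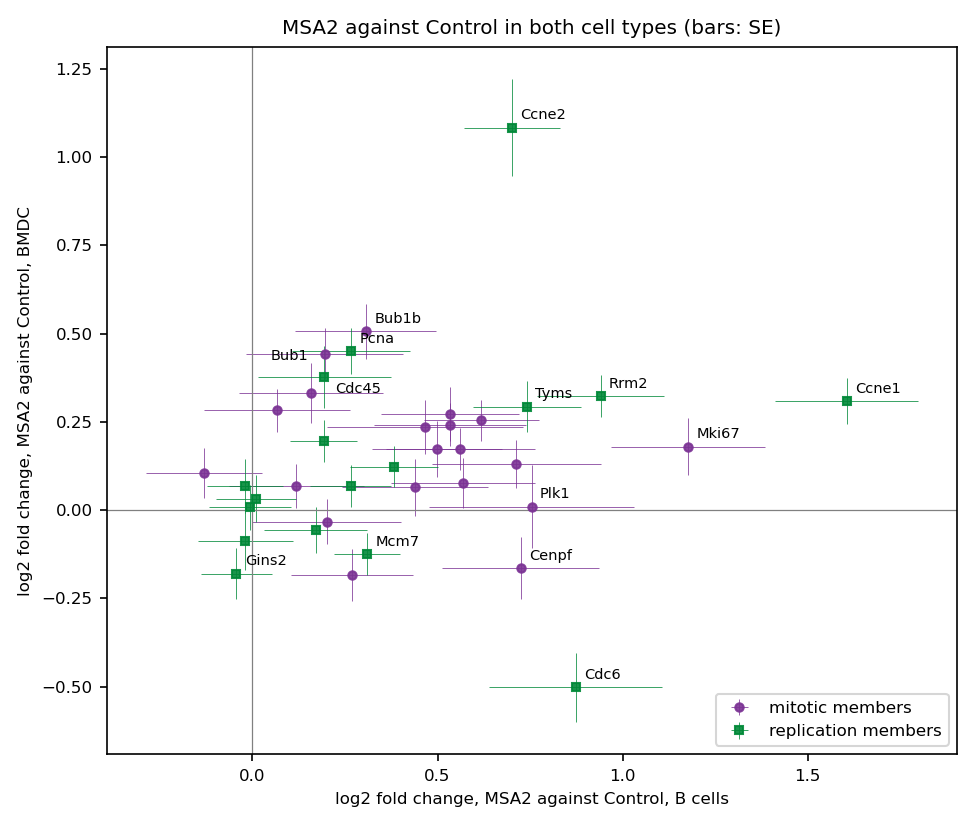
Log2 fold change of MSA2 against Control in B cells (horizontal) and BMDC (vertical) for the 37 genes; circles are mitotic and squares replication genes, and bars are the standard error. Ccne1 (1.61 in B cells, 0.31 in BMDC) and Mki67 (1.18 and 0.18) lie far to the right, Ccne2 (0.70 and 1.08) at the top, and Cdc6 (0.87 and -0.50) is positive in B cells and negative in BMDC.

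A joint fit of all 17 libraries compared the treatment effects of BMDC and B cells. For MSA2 against Control the effect in BMDC minus that in B cells was negative and called for 7 genes, 2 of 20 mitotic and 5 of 17 replication, beside 20.7% of 17740 genes called lower and 16.3% called higher. Cdc6 gave the largest difference (-1.36 ± 0.27; adjusted p = 0.000635), with a rise in B cells and a fall in BMDC. Ccne1 (-1.29 ± 0.21; adjusted p = 7.88e-05), Mki67 (-0.99 ± 0.24; adjusted p = 0.00394), Cenpf (-0.88 ± 0.24; adjusted p = 0.00763) and Rrm2 (-0.61 ± 0.20; adjusted p = 0.0209) followed. Tyms (-0.44 ± 0.16; adjusted p = 0.0422) and Mcm7 (-0.43 ± 0.12; adjusted p = 0.00788) had the smallest called differences. Ccne2, higher in both cell types, gave 0.39 ± 0.20 (95% interval -0.03 to 0.81; adjusted p = 0.142). For Bub1, Bub1b and Pcna, called in BMDC and not in B cells, the differences were 0.26 ± 0.23, 0.21 ± 0.22 and 0.19 ± 0.20, none of them called. The call for Tyms was lost under 13 of 24 alternatives. Without B cell Control replicate 3 the count was 21, 14 of them mitotic, with 6147 calls over all genes against 6560.

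For the combination against Control no member was called, beside 3.04% of all genes called in either direction. Ccne2 (0.79 ± 0.21; adjusted p = 0.0526), Tk1 (0.60 ± 0.17; adjusted p = 0.067) and Bub1 (0.67 ± 0.25; adjusted p = 0.194) were the 3 members at an unadjusted p under 0.05, and DESeq2 called Ccne2 and Tk1. An unadjusted p under 0.05 was found there for 2448 of all 17740 genes (13.8%). For the combination against MSA2 the effect in BMDC minus that in B cells was positive and called for 10 genes, 4 mitotic and 6 replication, beside 15.3% of all genes called higher and 8.83% called lower. These were Ccne1 (1.097 ± 0.22; adjusted p = 0.000847), Cdc6 (0.97 ± 0.29; adjusted p = 0.0199), Mki67 (0.96 ± 0.26; adjusted p = 0.00982), Rrm2 (0.88 ± 0.21; adjusted p = 0.00384), Birc5 (0.79 ± 0.23; adjusted p = 0.016), Ccna2 (0.67), Tk1 (0.66), Cdk1 (0.63), Tyms (0.58) and Mcm7 (0.44). The call for Ccna2 was lost under 15 of 24 alternatives. The count was 17 without B cell Control replicate 3 and 4 without BMDC combination replicate 1, with 4281 and 3472 calls over all genes against 4275. Both interactions with MSA2 rest on the B cell MSA2 libraries and their marker levels.

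Other genes of the cycle were counted in 6 lists and are read beside the share of all genes called, which for MSA2 against Control in B cells was 24.9% higher and 18.5% lower. In B cells under MSA2 the G1 entry genes gave 3 higher and 2 lower of 12: the D cyclins Ccnd1 (1.87) and Ccnd3 (0.84) and the ubiquitin ligase subunit Skp2 (0.74) rose, and Myc (-0.46) and Cdk4 (-0.23) fell. Among 16 CDK inhibitors and other brakes 7 rose, led by Cdkn2a (1.68), Cdkn1c (1.61) and Cdkn2b (1.25), and 2 fell, Btg2 (-0.72) and Cdkn2d (-0.56). Levels of Cdkn2a, Cdkn1c and Cdkn2b were low, with means of 0.76, 2.18 and 1.47 CPM under MSA2 and 0.23, 0.71 and 0.62 CPM in Control. Kinetochore, spindle and condensation genes gave 10 higher and 0 lower of 31, led by separase, Espl1 (1.19), Anln (0.99), Kifc1 (0.92) and Racgap1 (0.91). Below the background in both directions, licensing and fork genes gave 4 higher and 5 lower of 28: Mcm10 (0.64) and Uhrf1 (0.46) rose, while the polymerase subunit Pold1 (-0.57) and the licensing factor Cdt1 (-0.53) fell. The E2F list gave 1 higher, E2f6 (0.57), and 1 lower, Lin54 (-0.68), of 12, and the checkpoint list 1 higher of 14, Fancd2 (0.52). List medians were 0.17 for G1 entry, 0.22 for brakes, 0.03 for E2F, 0.08 for licensing, 0.24 for kinetochore and 0.13 for checkpoint genes, against -0.01 over all genes. Of these lists the kinetochore genes (10 of 31) and the brakes (7 of 16) had a larger share of higher calls than all genes, and the G1 entry genes (3 of 12) about the same share; these differences were not tested. Under the combination, Cdkn2d (-0.76) was the single call of the 6 lists against Control.

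Against MSA2, the combination in B cells gave 1 higher and 12 lower of 31 kinetochore genes, led by Racgap1 (-1.04) and Kifc1 (-1.003), and Cdc25b (0.27) rose. G1 entry genes gave 2 higher, Mycn (0.81) and Myc (0.73), and 3 lower, Ccnd1 (-1.96), Skp2 (-0.87) and Ccnd3 (-0.69). Brakes gave 1 higher and 4 lower, licensing genes 3 and 3, E2F genes 2 and 1, and checkpoint genes 1 and 1. Over all genes 14.1% were called higher and 22.9% lower, so that most of these lists lay near or under the background, with list medians of -0.42 for kinetochore, -0.02 for G1 entry, -0.13 for brakes, -0.07 for licensing, -0.04 for E2F and -0.11 for checkpoint genes.

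In BMDC, Btg2 and Cdkn1a led the brakes. Btg2, an antiproliferative gene, fell under MSA2 (-1.76) and under the combination (-2.14), while Cdkn1a, which encodes p21, rose under both (1.01 and 0.77). Counts under MSA2 were 5 higher and 2 lower of 16 brakes, and 3 and 0 of 11 tested G1 entry genes, led by the D cyclin Ccnd2 (0.83). The E2F list gave 4 higher and 2 lower of 12, with the coactivator Mybl2 (0.47) up and E2f2 (-0.48) down. Licensing genes gave 6 and 1 of 28, led by Orc1 (0.42), and kinetochore genes 7 and 2 of 31, with the inhibitor of the anaphase-promoting complex Fbxo5 down (-0.49). Checkpoint genes gave 4 and 2 of 14, with the kinase Atm up (0.96) and Wee1, which restrains CDK1, down (-0.53). Under the combination the counts, higher and lower, were 2 and 1 for brakes, 1 and 2 for E2F, 3 and 0 for licensing, 0 and 2 for kinetochore, 0 and 1 for checkpoint and 0 and 0 for G1 entry genes. The shares over all genes were 14.6% higher and 13.5% lower under MSA2, and 7.51% higher and 5.38% lower under the combination. List medians under MSA2 lay between -0.01 (brakes) and 0.15 (checkpoint), and under the combination between 0.04 and 0.09, against -0.01 and 0.01 over all genes. No list gene was called between the combination and MSA2 in BMDC.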

How the data were processed

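RNA sequencing libraries (17, in 6 groups taken from the sample titles) were deposited by the authors as 2 tables of RSEM expected counts per gene, 1 for each cell type, and every value was already a whole number. The submitters' processing notes list cutadapt 4.8, FastQC 0.11.8, STAR 2.7.8a, RSEM 1.3.3 and MultiQC 1.20 and name the mouse build; the annotation release and strand setting are not given in the sources used here. Genes with low counts were removed with filterByExpr, libraries were scaled by TMM, and groups were compared with edgeR 4.0.16 (R 4.3.3), quasi-likelihood test, with Benjamini-Hochberg adjustment over all genes tested and a threshold of 0.05. Each cell type was fitted by itself with its 3 groups, and differences between cell types were tested in 1 fit of all 17 libraries. Standard errors were taken as the log2 fold change divided by the square root of the F statistic, and intervals are at 95%. The test was also run on simulated counts with 200 changed genes. For MSA2 against Control in B cells 7016 of 16180 genes were called. The simulation therefore cannot show how the scaling or the test behaved there. Alternatives were other scaling, other filters, DESeq2 1.42.0, limma-voom (limma 3.58.1), a replicate block, the compared groups by themselves, and each library left out. Same-suffix libraries of the combination and MSA2 groups in B cells correlated in their deviations from the group means at 0.12 to 0.26 (3 of 3 pairs above 0.1; other pairs -0.23 to 0.10), so the titles' suffix was taken to pair these samples; no other pair of groups met this.

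The 37 genes, the 6 lists of other cell cycle genes and the 11 marker lists were chosen with earlier results of these data known. Values in every library are given for preselected key genes and for the 5 called members of largest change in a direction; full statistics go to at most 8 per direction, and up to 4 called genes are named per other list. Depth and the number of libraries limit the precision, and no library pair within a group differed by as little as sampling noise.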

Additional observations from a re-analysis of the deposited data

Results flagged for a closer look

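The effect of MSA2 against Control differed between BMDC and B cells for 7 of the 37 genes, as a log2 difference of BMDC minus B cells in edgeR's joint fit. All were called lower. Over all 17740 genes tested 20.7% were called lower and 16.3% higher, so the count of members is near the background. The differences were -1.36 for Cdc6 (adjusted p = 0.000635), -1.29 for Ccne1 (adjusted p = 7.88e-05), -0.99 for Mki67 (adjusted p = 0.00394), -0.88 for Cenpf (adjusted p = 0.00763), -0.61 for Rrm2 (adjusted p = 0.0209), -0.44 for Tyms (adjusted p = 0.0422) and -0.43 for Mcm7 (adjusted p = 0.00788). The call for Tyms was lost under 13 of 24 alternatives and that for Rrm2 under 2, while the other 5 held. Cdc6 had opposite directions, called in each cell type.

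The effect of the combination against MSA2 differed for 10 of the 37 genes, all called higher, beside 15.3% of all genes called higher and 8.83% called lower. The differences were 1.097 for Ccne1 (adjusted p = 0.000847), 0.97 for Cdc6 (adjusted p = 0.0199), 0.96 for Mki67 (adjusted p = 0.00982), 0.88 for Rrm2 (adjusted p = 0.00384) and 0.79 for Birc5 (adjusted p = 0.016). They were 0.67 for Ccna2 (adjusted p = 0.0489), 0.66 for Tk1 (adjusted p = 0.00696), 0.63 for Cdk1 (adjusted p = 0.0101), 0.58 for Tyms (adjusted p = 0.0184) and 0.44 for Mcm7 (adjusted p = 0.0125). The call for Ccna2 was lost under 15 of 24 alternatives, that for Cdc6 under 3, that for Tyms under 2, and those for Birc5, Mcm7 and Mki67 under 1 each. Both sets share the B cell MSA2 libraries, whose T cell, erythroid and neutrophil marker levels stood above those of every other B cell library.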

How the results depend on the processing

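No called member changed direction under any alternative. Of the calls, 7 of 16 (MSA2 against Control in B cells), 7 of 18 (combination against MSA2 in B cells), 10 of 16 and 1 of 7 (MSA2 and combination against Control in BMDC), 5 of 7 and 4 of 10 (the differences between cell types for MSA2 against Control and combination against MSA2) held under every alternative, and most losses came with a library left out (158 of 779 member values). With each library left out in turn the members called ran from 7 to 23 and from 9 to 25 in the 2 B cell comparisons with MSA2, from 1 to 9 for the combination against Control in BMDC, and from 5 to 21, 0 to 1 and 4 to 17 for the differences between cell types (MSA2 against Control, combination against Control, combination against MSA2). All genes called then ran from 91 to 220 for the combination against Control in B cells, 843 to 2177 in BMDC, 0 to 99 for the combination against MSA2 in BMDC and 246 to 654 for the difference in the combination against Control. For the combination against Control in B cells, members and all genes called were 1 and 359 without the filter and 1 and 391 with DESeq2. For the combination against MSA2 in BMDC all genes called were 561 without the filter, 162 with DESeq2, 3 with limma-voom and 13 with the groups by themselves. Members that differed between cell types for MSA2 against Control were 12 without scaling factors, 12 at 1 CPM in 3 libraries and 11 with limma-voom. For the combination against Control they were 1 without scaling factors, 3 without the filter and 2 with DESeq2, with 818 and 888 genes in all for the last pair. Apart from the combination and MSA2 in B cells, the title suffix did not pair samples: over all groups same-suffix libraries correlated at -0.04 to 0.26 in B cells (9 pairs, 3 above 0.1) and -0.11 to 0.13 in BMDC (7 pairs, 1 above 0.1). A replicate block gave 1 member and 260 genes for the combination against Control in B cells, 4 members in BMDC, 2 members for the difference between them, and ended the call of Ccna2 (adjusted p = 0.0827) in the difference for the combination against MSA2. Without scaling factors the median of all genes shifted by -0.11 (combination against MSA2 in B cells), and by -0.13 and 0.16 in the 2 differences that involve MSA2; calls for MSA2 against Control in B cells were then 4535 higher and 1929 lower, against 4022 and 2994, and for the combination against MSA2 1239 and 4369, against 2279 and 3706. The cause of these changes was not tested. Where a member count stands without the calls over all genes in the same fit, it says nothing particular to the members.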
